A study of Mus musculus with 4 samples.

Results

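Translation initiation and elongation factors were examined in RNA sequencing of brain septal tissue from restraint-stressed mice. The members were the gene rows whose symbol begins with Eif or Eef, without Eif2s3x and Eif2s3y, the X- and Y-linked genes of eIF2 gamma. This gave 60 genes among 15409 gene rows, and all 60 were among the 13912 genes tested, so none was lost to the filter on low values. The genotypes were TCRb-/-, which lack the T cell receptor beta chain, and wild type (WT). Every mouse of both genotypes had been held in a restraining cone for 30 min on each of 3 days and was killed 1.5 h after the last session, so both groups were stressed. There were 2 libraries per genotype, 1 in experiment 1 and 1 in experiment 2, and each was made from the pooled septal tissue of 4 to 5 mice. No source used here gives sex, age or strain background. The RNA came from a homogenate from which nuclei and debris had been spun down before detergent was added. A replicate was therefore a pool, and p-values measure only the spread between these pools.

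Protein synthesis starts when eIF2, carrying the initiator tRNA, joins the small ribosomal subunit together with eIF1, eIF1A, eIF3 and eIF5, while the eIF4 proteins bring the capped mRNA. The exchange factor eIF2B recharges eIF2 with GTP, and stress kinases that phosphorylate eIF2 alpha block that step, which lowers general translation in the integrated stress response. eEF1A then delivers aminoacyl-tRNAs, eEF2 moves the ribosome along the mRNA, and eEF2 kinase inhibits eEF2. In neurons these controls are known for their part in synaptic plasticity and memory. The values below are mRNA levels and say nothing of protein amount, phosphorylation or translation rate.

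The libraries held 19988137 to 26210790 reads. The label check was the gene Trbc2, a constant segment of the missing chain, which had 0 reads in both TCRb-/- libraries and 169 and 86 reads in WT libraries 1 and 2. Those 0 counts leave room for 3 reads, which is 0.122 and 0.150 CPM (reads scaled to a common library total) and covers counting error only. Septal markers such as Zic1, Zic4, Dlk1 and Trpc4 were present in every library, and 7 of the 8 septal markers on the list passed the filter. Markers of neighbouring tissue differed strongly between libraries. The summed level of 8 choroid plexus markers was 2096 and 6758 CPM in TCRb-/- libraries 1 and 2 and 1278 and 4104 CPM in WT libraries 1 and 2. The summed level of 8 striatal markers was 4086 and 850 CPM in TCRb-/- and 3653 and 2181 CPM in WT. None of the listed markers was at 0 in any library. In bulk tissue, fewer cells of a type and less RNA per cell cannot be told apart.

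All 60 genes had reads in every library. The lowest count was 41 reads, for Eif2ak2, and together the 60 genes took 0.784% and 0.836% of the reads in TCRb-/- libraries 1 and 2 and 0.805% and 0.830% in WT libraries 1 and 2. The shares of the genotypes overlapped, and in both genotypes the experiment 2 library had the higher share.

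**Figure D1:**
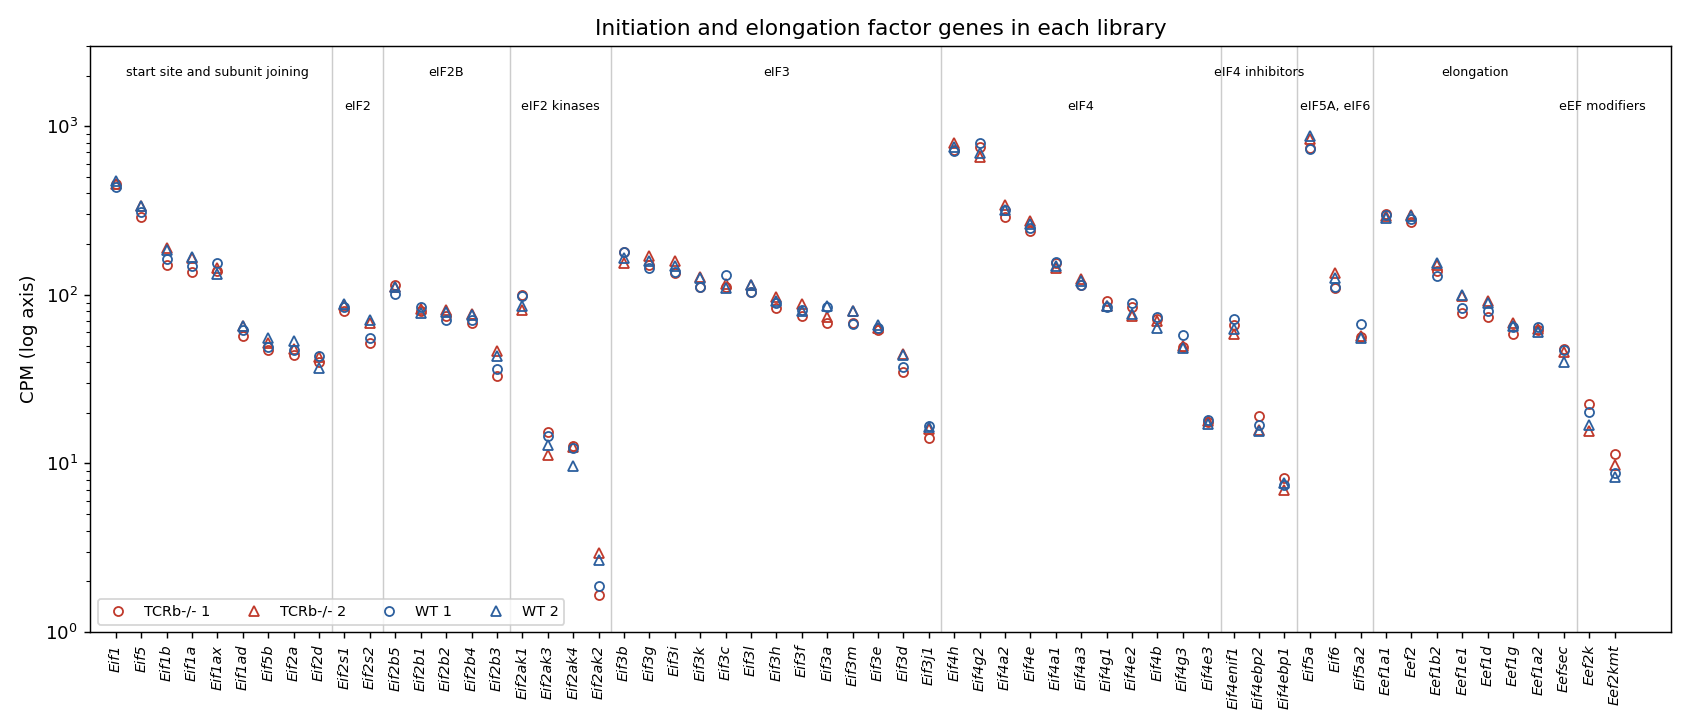
CPM on a log axis for each of the 60 genes in the 4 libraries, ordered by role and by mean level. Red symbols are TCRb-/- and blue symbols WT, circles are experiment 1 and triangles experiment 2. The 4 points of most genes nearly coincide, and Eif2ak2 lies lowest, between 1.67 and 2.95 CPM.

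Levels of different genes were compared per length, as the mean CPM over the 4 libraries per kilobase of transcript. Length was the median over a gene's complete annotated transcripts, those paired with RefSeq where there were any. The transcript forms present in this tissue were not determined, so values per kb depend on that choice. Eif5a, which helps ribosomes through stretches that stall them and carries the modified residue hypusine, was highest at 593 CPM per kb, with 541 to 653 across libraries. Eif1, a guardian of start codon choice, followed at 343 CPM per kb (330 to 356), and then Eif4h, a helper of the eIF4A helicase, at 292 CPM per kb (279 to 311). The ranges of these 3 genes did not overlap, but they cover only the spread between pools. In mean CPM without length, Eif4h had 744 and Eif1 453. The order of Eif1 and Eif4h per kb therefore rests on the lengths used, 1322 and 2546.5 bases. Below them, Eif1b at 166, Eef1a1 at 165 and the eIF3 subunit Eif3k at 154 CPM per kb had ranges of 145 to 182, 159 to 169 and 143 to 166, so their order was not resolved.

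At the other end stood Eif2ak2, the kinase PKR that senses double-stranded RNA and is induced by interferon, at 0.532 CPM per kb. Eif2ak4, the amino acid sensor GCN2, had 2.34 CPM per kb and Eif3j1, a loosely held eIF3 subunit, 2.93 CPM per kb. The 4 kinases of eIF2 alpha were unequal in level. Eif2ak1, the heme-regulated kinase HRI, had 21.1 CPM per kb and Eif2ak3, the endoplasmic reticulum stress sensor PERK, 4.96 CPM per kb. The lengths used were 2720 bases for Eif2ak3, 4325 for Eif2ak1, 4313 for Eif2ak2 and 5059 for Eif2ak4. Within the 13 eIF3 subunits the level ran from 2.93 CPM per kb for Eif3j1 to 154 CPM per kb for Eif3k, although the core subunits work in a shared complex. The eIF2 alpha and beta genes lay close together, with 24.9 CPM per kb for Eif2s1 and 24.2 CPM per kb for Eif2s2.

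Some members share sequence with transcripts of other genes, and reads from such stretches may have been split or lost in the authors' counting. Sharing was counted on both strands, so near copies elsewhere and overlapping genes at the same place are not told apart. Of the 60 genes, 15 shared no 50-base word with the transcripts of another gene, and 15 shared more than 10% of their words. The highest shares were 50.9% for Eif3j1, whose closest partner was Eif3j2, 44.2% for Eef1g, 40.4% for Eef1a1, which shared words with 21 other genes, and 37.2% for Eif3d. Levels of these genes are uncertain for that reason, and the size of the error was not measured.

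Promoter letters are shown for the members whose window held a motif of a stress or interferon pathway, because the eIF2 kinases act in those pathways. RefSeq windows of 300 bases around annotated starts (GRCm38.p6) were found for 49 of the 60 genes. They were searched on both strands for the interferon response element, which is GAAA, any 2 bases and GAAA again, for the cyclic AMP element TGACGTCA, the ATF4 element TGATGNAA and the TATA box TATAAA. The interferon element was in 3.44% of the 32851 windows of all genes, and in Eif2ak2, Eif2s1 and Eif3a among the members. The cyclic AMP element was in 1.79% of windows and, among the members, in Eef2, the translocase. The ATF4 element was in 3.97% of windows and, among the members, in 1 of the 3 listed starts of Eef2k, the kinase of eEF2. The TATA box was in 13.6% of windows and in Eef2, Eif2s1, Eif3b and Eif3f among the members. Capitals mark the match in the gene's own direction, so a match on the opposite strand reads as its reverse complement. A match is a description and not a shown binding site.
Eif2ak2, chr17:78882535-78882564, minus strand: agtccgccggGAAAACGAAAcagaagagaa
Eif2s1, chr12:78861835-78861894, plus strand: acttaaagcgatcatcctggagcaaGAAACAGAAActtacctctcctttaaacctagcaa
Eif3a, chr19:60790870-60790929, minus strand: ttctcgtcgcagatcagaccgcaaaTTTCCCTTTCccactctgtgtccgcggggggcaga
Eef2, chr10:81176622-81176651, plus strand: aggccgggcgtTGACGTCAgcggtctcttc
Eef2k, chr7:120851079-120851138, plus strand: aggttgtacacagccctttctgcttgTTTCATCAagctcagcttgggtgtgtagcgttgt
The Eif2ak2 match lay at bases 19 to 28 from the start of transcription and the Eef2 match at bases 3 to 10. The other matches lay upstream of the RefSeq start searched, at -212 to -203 in Eif2s1, -211 to -202 in Eif3a and -84 to -77 in Eef2k. The GENCODE gene positions used elsewhere here begin earlier for Eif2s1 (78861819) and Eef2k (120842831). The matches of Eif2s1 and Eef2k lie inside those gene spans. Among the genes with a printed match, Eif2ak2, Eif2s1, Eef2 and Eef2k are described again below between experiments and Eif3a between genotypes. Only Eef2k passed the limma threshold there, and a link of motif to level was not tested.

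The first comparison asked whether the mRNA levels of these factors differed between TCRb-/- and WT septum after restraint. None of the 60 genes passed the threshold in limma (adjusted p under 0.05), against 0% of all 13912 genes tested. At an unadjusted p under 0.05 the members counted 0, against 0.309% of all genes, and limma with voom weights also called 0 members. The log2 differences, TCRb-/- minus WT on the log2(CPM + 1) scale, ran from -0.27 to 0.28 with a median of -0.01 (0.00 over all genes), and 52 of 60 lay within 0.1 of 0. The 95% intervals bound what could have been missed. For 49 of the 60 genes the whole interval lay within 0.5 log2 units of 0, and the outermost limits of any member were -0.71 and 0.72. With the experiment as a block, 58 of the 60 intervals lay within 0.5, and limma called 0 members, against 0.0144% of all genes. At an unadjusted p under 0.05 that fit counted 1 member, Eif3a, against 5.64% of all genes.

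**Figure D2:**
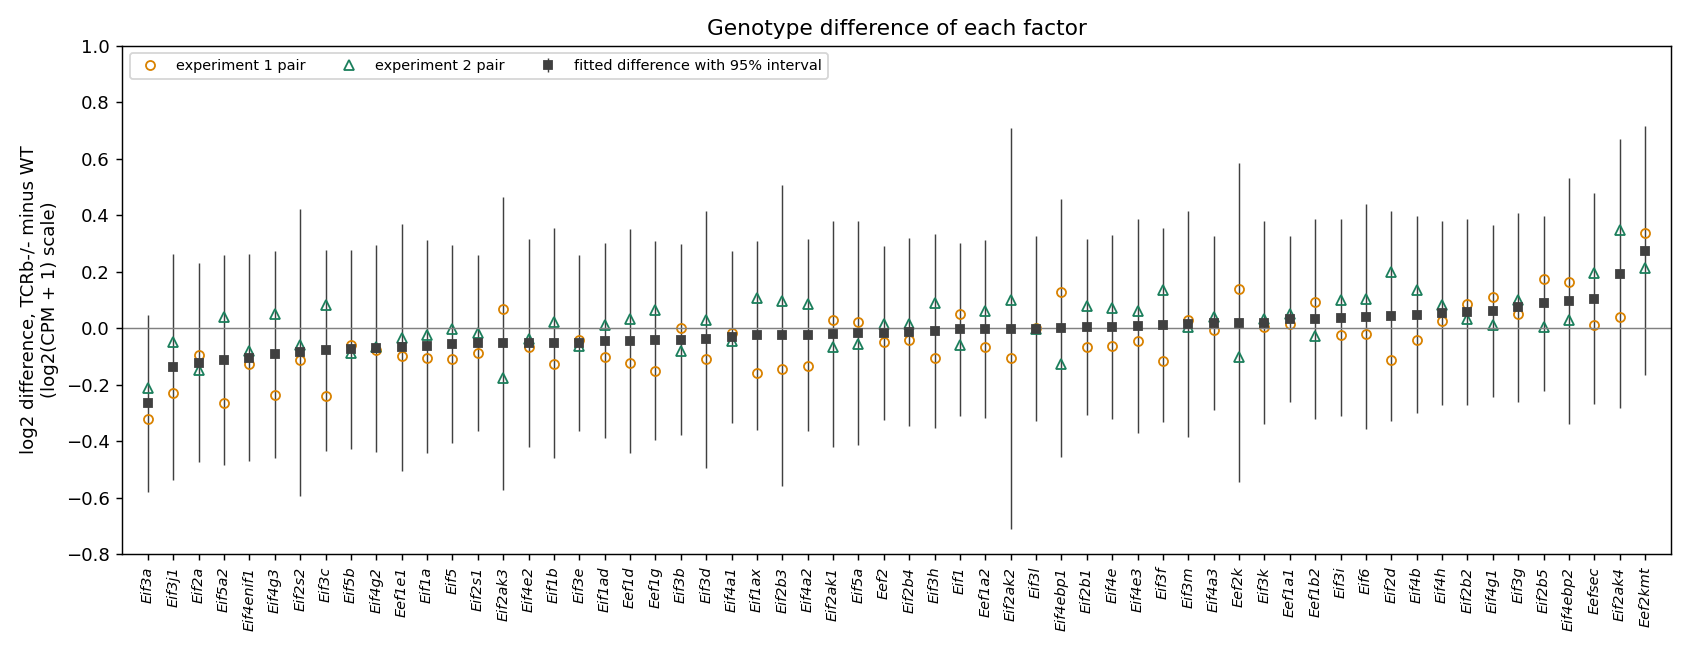
Log2 difference between TCRb-/- and WT for each gene, sorted. Squares are the fitted differences with 95% intervals, orange circles the pair of libraries of experiment 1 and green triangles the pair of experiment 2. These intervals come from the fit without the experiment as a block. All 60 include 0, and the fitted values run from -0.27 for Eif3a to 0.28 for Eef2kmt. With the block the interval of Eif3a was -0.44 to -0.09.

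The lowest fitted difference was that of Eif3a, the scaffold subunit of eIF3, at chr19:60761117-60790658 on the minus strand. It had 68.0 and 74.0 CPM in TCRb-/- libraries 1 and 2 and 85.2 and 85.8 CPM in WT libraries 1 and 2. Both TCRb-/- values lay below both WT values, and the difference was -0.27 (SE 0.12, 95% interval -0.58 to 0.05, limma unadjusted p = 0.0810 and adjusted p = 1.00). With the block the 95% interval was -0.44 to -0.09, with limma unadjusted p = 0.00823 and adjusted p = 0.848. The pairs gave -0.32 in experiment 1 and -0.21 in experiment 2. Eif3j1 also had non-overlapping groups, with 14.2 and 16.0 CPM in TCRb-/- and 16.7 and 16.5 CPM in WT, a difference of -0.14 (SE 0.16). The median of all 13 eIF3 subunits was -0.01.

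The highest fitted difference was that of Eef2kmt, which encodes the enzyme that methylates a lysine of eEF2. It had 11.3 and 9.86 CPM in TCRb-/- and 8.78 and 8.36 CPM in WT, a difference of 0.28 (SE 0.17, 95% interval -0.16 to 0.72). With the block the 95% interval of Eef2kmt was -0.03 to 0.58 (limma unadjusted p = 0.0741, adjusted p = 0.848). Eif2ak4 had 12.8 and 12.51 CPM in TCRb-/- and 12.4 and 9.62 CPM in WT, so that TCRb-/- library 2 and WT library 1 were almost equal. Eif2b5, the catalytic subunit of eIF2B, had 114 and 111 CPM in TCRb-/- and 101 and 111 CPM in WT. Eif4g1, the scaffold of the cap-binding complex, had 92.0 and 86.3 CPM in TCRb-/- and 85.1 and 85.7 CPM in WT. These 6 genes were the members whose genotype groups did not overlap. They made 10.0% of the members, against 17.8% of all genes tested. By direction, 6.67% were higher in TCRb-/- against 9.76% of all genes and 3.33% lower against 8.04%, and none passed the threshold.

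The medians of the functional classes lay between -0.07 and 0.15. The median genotype difference was -0.05 for the 9 factors of start site selection and subunit joining, -0.07 for the 2 eIF2 subunits, 0.00 for the 5 eIF2B subunits and -0.01 for the 4 eIF2 kinases. It was 0.00 for the 11 eIF4 genes, -0.02 for Eif5a, Eif5a2 and Eif6 together 0.00 for the 3 genes of eIF4E-binding repressors, -0.01 for the 8 elongation genes and 0.15 for Eef2k and Eef2kmt, which modify eEF2. Of the 60 genes, 27 (45.0%) had the same sign in both experiments, against 51.6% of all genes. Over the same genotype contrast, all 8 choroid plexus markers were higher in the TCRb-/- library of both experiments, with a median difference of 0.56. The 8 striatal markers had a median difference of -0.59, with medians of 0.18 in experiment 1 and -1.36 in experiment 2. The part of tissue make-up in the members' values was not tested.

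Paralog pairs were compared within each library, since a ratio of 2 genes does not depend on the library total. Eef1a2 is the eEF1A form of mature neurons and muscle, while Eef1a1 is the general form. Reads of Eef1a2 relative to Eef1a1 were 0.203 and 0.214 in TCRb-/- and 0.216 and 0.212 in WT, and the log2 ratio differed by -0.04 between genotypes (exact two-sided permutation p = 0.667). The helicase genes Eif4a2 and Eif4a1 had a ratio of 1.87 and 2.37 in TCRb-/- and 2.03 and 2.17 in WT, a log2 difference of 0.01 (exact permutation p = 1.00). The genes of the cap-binding inhibitors 4E-BP2 and 4E-BP1, Eif4ebp2 and Eif4ebp1, had a ratio of 2.34 and 2.27 in TCRb-/- and 2.29 and 2.01 in WT, a log2 difference of 0.10 (exact permutation p = 0.667). The genotypes overlapped in each of the 3 ratios, the adjusted p over the 3 was 1.00 for each, and 2 against 2 libraries cannot give a p below 0.33.

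The second comparison set experiment 2 against experiment 1, each with 1 library of either genotype. The labels call the experiment a batch, so this comparison shows how far these mRNAs varied between pools of the same genotype. The genotype fit without the block counts that variation as error. The fit with the block takes out the part that both genotypes share. Experiment 2 was higher for 9 members, lower for 2, and 49 did not pass the limma threshold. The members called made 18.3%, against 23.7% of all genes tested. By direction, 15.0% of members were called higher against 8.95% of all genes, and 3.33% lower against 14.7%. The median log2 difference was 0.09 for the members and -0.03 for all genes. The groups of libraries did not overlap for 43 of the 60 genes (71.7%, against 67.3% of all genes), higher in experiment 2 for 51.7% against 30.1% and lower for 12 of 60 against 37.2%. Of the 60 genes, 46 (76.7%) had the same sign in both genotypes, against 77.3% of all genes.

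These calls rest on 2 pools per experiment. Without TCRb-/- library 1 the call was lost for all 11 genes, without TCRb-/- library 2 only Eif2s2 was called, and without WT library 1 or WT library 2 there were 4 called members each. Without the mean-variance trend in limma 0 members were called, against 629 of all genes. The split also depends on scaling, with 11 higher and 0 lower under median-of-ratios scaling and 10 higher and 1 lower under quantile normalization. Over all 13912 genes the counts were 1543 higher and 1764 lower, and 1634 higher and 1593 lower. The share of higher calls among all called genes moved from 37.8% to 46.7% and 50.6% in turn.

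**Figure D3:**
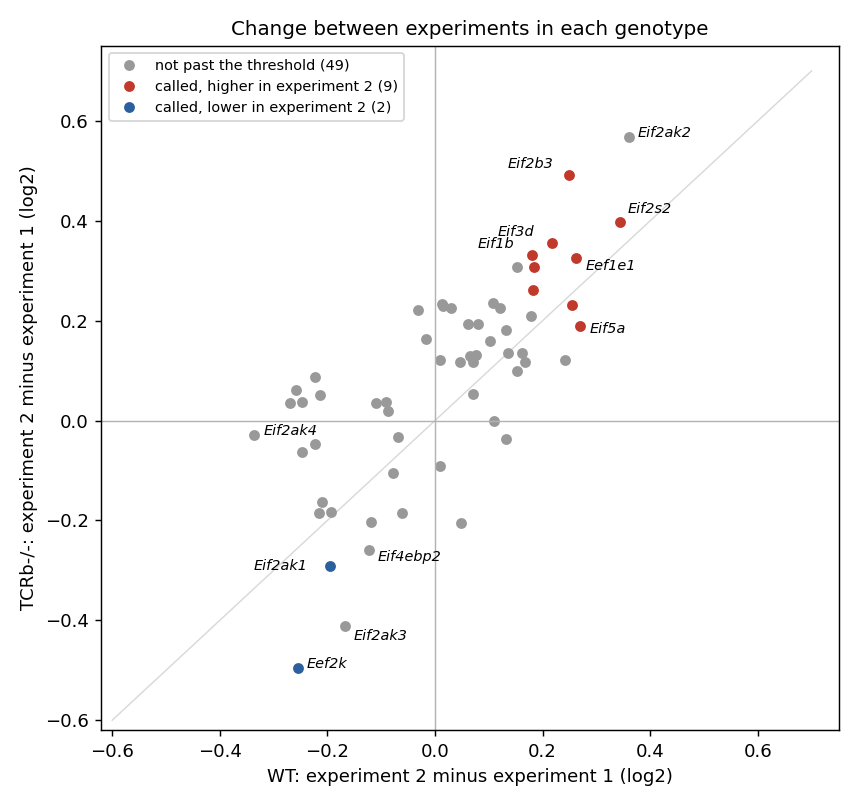
Log2 change from experiment 1 to experiment 2 for each gene, WT on the x axis and TCRb-/- on the y axis, on the log2(CPM + 1) scale. Red points are the 9 members called higher, blue points the 2 called lower and grey points the 49 others. The grey diagonal marks equal change, and the called genes lie at the upper right and lower left.

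The genes called higher included Eif2s2, the beta subunit of eIF2, at chr2:154871410-154892935. It had 51.5 and 55.8 CPM in the TCRb-/- and WT libraries of experiment 1 and 68.2 and 71.1 CPM in those of experiment 2. The change was 0.40 in TCRb-/- and 0.34 in WT, and the fitted difference was 0.37 (SE 0.08, limma adjusted p = 0.0154). Its partner Eif2s1, the alpha subunit that the stress kinases phosphorylate, had 79.9 and 85.1 CPM in experiment 1 and 86.8 and 87.8 CPM in experiment 2, a difference of 0.08 that did not pass (limma adjusted p = 0.421).

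Eif2b3, the gamma subunit of eIF2B, at chr4:117019402-117087306, had 32.9 and 36.5 CPM in experiment 1 and 46.6 and 43.6 CPM in experiment 2. Its difference of 0.37 (SE 0.09, limma adjusted p = 0.0249) was the only call among the 5 eIF2B genes, whose median was 0.13. Eef1e1, at chr13:38644207-38659058, had 78.0 and 83.6 CPM in experiment 1 and 98.01 and 101 CPM in experiment 2, a difference of 0.29 (SE 0.07, limma adjusted p = 0.0230). Despite its symbol, its protein is known as a scaffold of the multi-tRNA synthetase complex and not as a translating factor of the ribosome. It was the only call among the 8 elongation genes. Eef1a1, with 303 and 299 CPM in experiment 1 and 296 and 286 CPM in experiment 2, and Eef2, with 271 and 280 and then 296 and 293 CPM, did not pass.

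Among the start site factors, Eif1b, the close relative of Eif1, had 150 and 164 CPM in experiment 1 and 189 and 186 CPM in experiment 2, a difference of 0.26 (SE 0.07, limma adjusted p = 0.0334). Eif1 itself had 452 and 436 CPM and then 452 and 471 CPM, so that its experiments overlapped. In eIF3, Eif3d, a subunit that can bind the cap of selected mRNAs, had 34.8 and 37.6 CPM in experiment 1 and 44.8 and 43.8 CPM in experiment 2, a difference of 0.29 (SE 0.08, limma adjusted p = 0.0443). With genotype as a term its adjusted p was 0.0502. Eif5a rose from 742 and 730 CPM to 846 and 880 CPM (limma adjusted p = 0.0397), and Eif6, which keeps the large subunit from joining too early, from 109 and 111 to 136 and 126 CPM (limma adjusted p = 0.0364). Under quantile normalization Eif5a no longer passed (adjusted p = 0.105). Eif5a2, the other eIF5A gene, had 56.0 and 67.4 CPM and then 57.3 and 55.7 CPM. The remaining calls, Eif3m and Eif1a, are named after their values were seen and had differences of 0.24 and 0.22.

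Both genes called lower encode kinases that restrain translation. Eef2k, the kinase of eEF2, at chr7:120842831-120907450, had 22.4 and 20.3 CPM in experiment 1 and 15.6 and 16.8 CPM in experiment 2, a difference of -0.38 (SE 0.11, limma adjusted p = 0.0461). Eif2ak1, at chr5:143817788-143904251, had 99.9 and 97.97 CPM and then 81.4 and 85.4 CPM, a difference of -0.24 (SE 0.07, limma adjusted p = 0.0369). Neither call held under median-of-ratios scaling, with adjusted p = 0.0580 for Eef2k and 0.0561 for Eif2ak1, or under quantile normalization, with 0.103 and 0.0669. Without the filter on low values the adjusted p of Eef2k was 0.0509.

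Among the 4 eIF2 kinases, 3 were lower in experiment 2 in both genotypes and Eif2ak2 was higher, and only Eif2ak1 was called. Eif2ak3 had 15.3 and 14.5 CPM in experiment 1 and 11.3 and 12.8 CPM in experiment 2, a difference of -0.29 (SE 0.12, limma adjusted p = 0.126). Eif2ak2 had the largest fitted difference of all members, 0.46 (SE 0.17, limma adjusted p = 0.0895), from 1.67 and 1.87 CPM to 2.95 and 2.68 CPM. Those levels stand for 41 and 49 reads and then 59 and 60 reads, and they did not pass the threshold. Eif2ak4 had overlapping experiments.

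None of the 11 eIF4 genes was called, and their median was -0.04. The cap-binding protein gene Eif4e had 240 and 251 CPM in experiment 1 and 275 and 262 CPM in experiment 2, while Eif4g2, which encodes a form of eIF4G that does not bind eIF4E, had 751 and 792 and then 662 and 692 CPM. Their differences, 0.13 and -0.19, had opposite signs and did not pass (limma adjusted p = 0.180 and 0.0801), although Eif4g2 passed under quantile normalization (adjusted p = 0.0414). The 3 genes for proteins that bind and restrain eIF4E, Eif4ebp1, Eif4ebp2 and Eif4enif1, were not called either, with a median of -0.19. Of the 9 members known to carry a 5′ terminal oligopyrimidine tract, the sequence through which mTOR controls translation of ribosomal and elongation genes, none was called and their median was 0.10.

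The spread between experiments was wider than the spread between genotypes for these genes. The SD over the 60 genes was 0.21 for the difference between experiments in TCRb-/- and 0.18 in WT, and 0.11 and 0.10 for the difference between genotypes in experiments 1 and 2. The same 4 measures over all tested genes were 0.43, 0.33, 0.20 and 0.23, so in each measure the members spread less than the genes at large. The sets were not matched for level, and the tested genes reach down to a mean of 1 CPM. Whether other genes of like level spread as little was not tested. In the same contrast 7 of the 8 choroid plexus markers were called higher in experiment 2 and all 8 striatal markers lower. Of the cortex and hippocampus markers 7 of 8 were called lower. The summed levels of the 8 were 311 and 368 CPM in experiment 1 and 92.6 and 94.6 CPM in experiment 2. Of the septal markers 3 of 7 were called higher and 0 lower, with a median of 0.38. The septal markers Chat and Ano1 were lower in experiment 2 in both genotypes, with differences of -0.33 and -0.20 that did not pass. The part of tissue make-up in the members' changes was not tested.

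The difference between experiments also moved with transcript length. Across the 60 genes, length and log2 difference had a Spearman correlation of -0.39, and across 13556 tested genes with a length it was -0.47. These points share the same 4 libraries and are a description. The 22 members under 2000 bases had a median difference of 0.13 with 5 called higher and 0 lower. The 26 members of 2000 to under 4000 bases had 0.01 with 4 higher and 1 lower, and the 12 members of 4000 bases or more had -0.06 with 0 higher and 1 lower. The medians of all genes in those classes were 0.15, -0.03 and -0.22. Of all genes under 2000 bases 21.0% were called higher and 3.30% lower, near the members' 22.7% and 0%. The shares were 5.94% and 12.3% at 2000 to under 4000 bases, against 15.4% and 3.85% of members, and 1.76% and 29.1% at 4000 bases or more, against 0% and 8.33%.

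**Figure D4:**
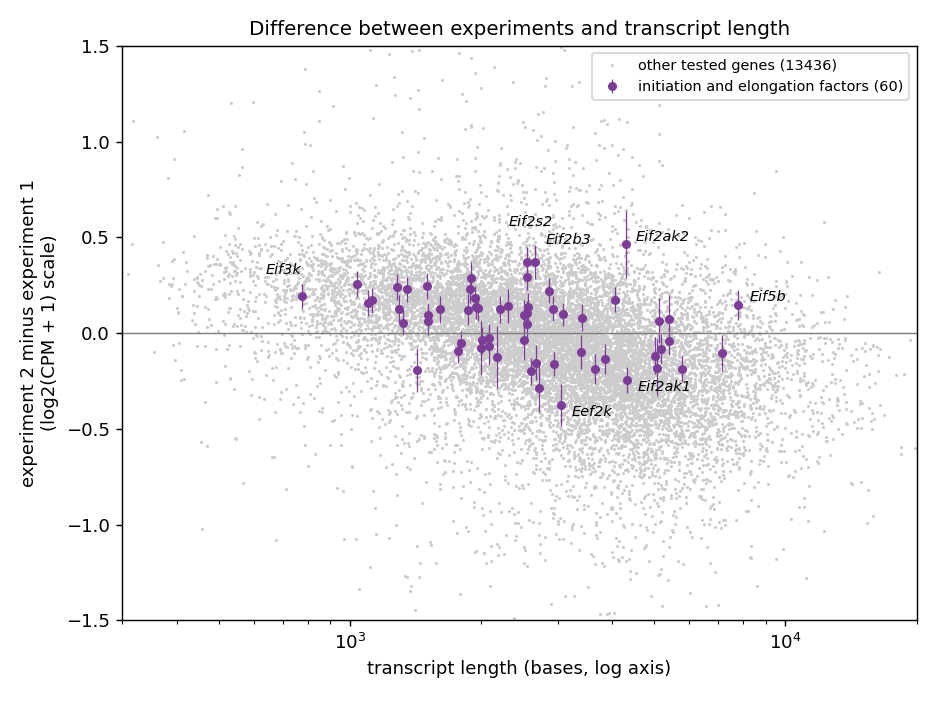
Log2 difference between experiments against transcript length on a log axis. Purple points are the 60 factors with their standard errors and grey points the 13436 other tested genes inside the plotted range. Grey points slope down from left to right, with class medians of 0.15, -0.03 and -0.22, and Eif2s2, Eif2b3 and Eif2ak2 lie in the upper part of the grey points of similar length and Eef2k in the lower part.

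When the trend on length was removed from each library, 6 of 60 members were called, all higher, which is 10.0% against 12.4% of all genes. Of all genes 5.7% were then called higher and 6.71% lower. Eif2s2, Eif2b3 and Eef1e1 kept their calls with differences of 0.37, 0.39 and 0.30, and so did Eif1a. Eif5 and Eif5b, which act at start codon recognition and at joining of the large subunit, were added, with differences of 0.33 (adjusted p = 0.0214) and 0.38 (adjusted p = 0.0214). The other 7 calls were lost. Eef2k and Eif3d kept much of their size, with differences of -0.31 (adjusted p = 0.104) and 0.21 (adjusted p = 0.142). Smaller differences were left for Eif6 at 0.12, Eif3m and Eif5a at 0.09, Eif1b at 0.07 and Eif2ak1 at -0.06, with adjusted p between 0.275 for Eif6 and 0.568 for Eif2ak1. The members' median then was 0.06, against 0.00 for all genes.

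Genes that work with these factors were read from a list of 42, of which 41 were tested. By genotype 0 of the 41 were called by limma, with a median of 0.01. Between experiments 3 were higher and 3 lower, with a median of 0.07. That is 7.32% each way, against 8.95% and 14.7% of all genes, so the counts do not exceed the background. Dohh, which completes the hypusine of eIF5A, had 184 and 185 CPM in experiment 1 and 228 and 220 CPM in experiment 2, a difference of 0.28 (limma adjusted p = 0.0181). Paip2, an inhibitor of the poly(A)-binding protein, differed by 0.26 (limma adjusted p = 0.0230) and the mitochondrial elongation factor gene Tsfm by 0.39 (limma adjusted p = 0.0121). Ppp1r15b, which directs a phosphatase to eIF2 alpha, had 33.9 and 33.6 CPM and then 21.1 and 23.6 CPM, a difference of -0.58 (limma adjusted p = 0.0089). Mknk2, a kinase of eIF4E, differed by -0.39 (limma adjusted p = 0.0300) and Rptor, a scaffold of the mTOR complex, by -0.30 (limma adjusted p = 0.0458). After removal of the length trend none of the 41 was called in either direction.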

How the data were processed

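The deposited values were log2 CPM per gene and library. As the values themselves showed, the authors had added 0.5 to reads and 1 to totals. Whole reads were recovered for 100% of values within 0.001 reads. Per the submitters' processing notes, HISAT2 2.1.0, SAMtools 1.3, HTSeq 0.9.1, R 4.0.5, limma 3.46.0 and mm10 were used, with no order given. No source used here gives read length or strand setting.

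Reads were expressed as CPM, genes averaging 1 CPM or more were kept, the 17 spike-in rows were left out, and log2(CPM + 1) was fitted with limma 3.58.1 in R 4.3.3 (mean-variance trend, two-sided, Benjamini-Hochberg adjustment over all 13912 genes, threshold 0.05). This scale understates changes of low genes. Genotype or experiment was the only term. Samples are paired by number, since per the labels a number marks the shared experiment, and deviations of same-numbered libraries correlated at 0.72 over all genes. The fit with that block was an alternative. Without it, the experiment difference that both genotypes share counts as error in the genotype test. At a limma unadjusted p under 0.05 the block counted 5.64% of all genes by genotype, against 0.309% without it. Self-tests ran on simulated counts.

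Transcript lengths, gene positions and shared words came from GENCODE M21. Promoters came from RefSeq. The members, lists, tests and alternatives were chosen with earlier results of these data known. Genes were named if on a list of 32 translation factors, if among the 5 highest or 5 lowest called members of a comparison (or, with none called, the 5 with the smallest p per direction among non-overlapping members), or if among the 3 most or least abundant. Members named outside that rule were chosen after their values were seen.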

Additional observations from a re-analysis of the deposited data

How the results depend on the processing

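No initiation or elongation factor was called by genotype under any alternative run. The count over all genes was 0 to 47 without 1 library, and with the experiment as a replicate block it was 2. Where 1 library was left out, its group had a lone sample that was assumed to vary like the others. Between experiments, 6 members passed with the length trend removed, 7 with genotype as a term as well (an alternative chosen after seeing the data), 0 without the variance trend and 0 to 4 without 1 library. The counts over all genes were 1682, 1742, 629 and 1406 to 3390. The block changed no call of a member by genotype, and with genotype as a term the calls of Eif3d and Eif1a were lost. The causes were not tested beyond the construction of each alternative.

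Signs were followed under every alternative for the 46 members named with values, and none that turned belonged to a difference called as reported. By genotype they were Eif2ak2 0.0062, Eif3f -0.0030, Eif3k -0.0041, Eif3m -0.0074, Eif4a3 -0.0050 and Eif4e -0.0044 with the length trend removed, with or without the block, Eif4e -0.00040 under median-of-ratios scaling, Eif2ak2 0.0032 and Eif4ebp1 0.00042 with a pseudocount of 5, Eif1 0.028 and Eif3h 0.00029 under quantile normalization, and Eif4ebp1 0.0079 with voom weights. Between experiments they were, with the length trend removed, with or without genotype as a term, Eif1 -0.093, Eif2ak4 0.039, Eif3e -0.064, Eif3h -0.024, Eif3k -0.017, Eif4a3 -0.032, Eif4b 0.0031, Eif4g1 0.19, Eif4g2 0.046, Eif4g3 0.13 and Eif5a2 0.10. Of the 14 members not followed in full, Eif1ax at 0.14, Eif3g at -0.018 and Eif3i at -0.00031 turned as well with the length trend removed. Eef1a2 turned to 0.0038 under median-of-ratios scaling and to 0.018 under quantile normalization.

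Leaving out 1 library turned the sign by genotype, with these lowest and highest log2 differences, for Eef1a1 -0.0015 to 0.067, Eef1a2 -0.050 to 0.042, Eef1b2 -0.088 to 0.15, Eef1d -0.20 to 0.11, Eef1e1 -0.23 to 0.095, Eif1a -0.20 to 0.066, Eef1g -0.16 to 0.072, Eef2 -0.081 to 0.048, Eef2k -0.23 to 0.27, Eif1 -0.059 to 0.051, Eif1b -0.22 to 0.11, Eif2ak1 -0.17 to 0.13, Eif2ak2 -0.29 to 0.28, Eif2ak3 -0.26 to 0.15, Eif2b3 -0.27 to 0.22, Eif2s1 -0.11 to 0.0050, Eif2s2 -0.29 to 0.11, Eif3d -0.22 to 0.14, Eif3b -0.14 to 0.061, Eif3f -0.10 to 0.12, Eif3h -0.12 to 0.10, Eif3k -0.085 to 0.12, Eif3m -0.11 to 0.14, Eif4a1 -0.083 to 0.023, Eif4a2 -0.14 to 0.092, Eif4a3 -0.041 to 0.076, Eif4b -0.064 to 0.16, Eif4e -0.092 to 0.10, Eif4ebp1 -0.10 to 0.10, Eif4ebp2 -0.032 to 0.23, Eif4enif1 -0.21 to 0.00096, Eif4g2 -0.17 to 0.026, Eif4g3 -0.22 to 0.031, Eif4h -0.011 to 0.12, Eif5 -0.17 to 0.057, Eif5b -0.16 to 0.0066, Eif5a -0.15 to 0.12, Eif5a2 -0.25 to 0.023 and Eif6 -0.11 to 0.19. Between experiments it did so for Eef1a2 -0.062 to 0.0063, Eef2kmt -0.29 to 0.045, Eif2b5 -0.039 to 0.13, Eif3a -0.10 to 0.23, Eif3j1 -0.041 to 0.19, Eif4g1 -0.10 to 0.015, Eif4g3 -0.22 to 0.013 and Eif5a2 -0.25 to 0.014. The log2 ratio of Eif4a2 to Eif4a1 differed by -0.17 to 0.18 between genotypes without 1 library. The signs of Eif3a and Eef2kmt by genotype and of Eif2s2, Eif2b3 and Eef2k between experiments were the same in every alternative run. The groups of these genes did not overlap in those comparisons, so leaving out 1 library could not turn their signs. The runs without 1 library are therefore no test of them. Eif2ak4, Eif2b5, Eif3j1 and Eif4g1, whose genotype groups also did not overlap, kept their signs by genotype without 1 library too. With 2 pools per genotype, differences of the size seen by genotype could not be told from 0 after adjustment over all genes.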

Other observations

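The cytosolic ribosomal protein genes, whose products the factors above act upon, were read beside them. Of 82 listed, 80 were tested and 0 were called by genotype by limma, with a median log2 difference of 0.01. Between experiments 33 were called higher and 0 lower, 78 of the 80 differences were positive and the median was 0.24. Of all genes 8.95% were called higher and 14.7% lower, with a median of -0.03. Among all genes under 2000 bases the shares were 21.0% and 3.30%, with a median of 0.15. With the length trend removed, 1 ribosomal protein gene was called higher and their median was 0.04, against 5.7% called higher and a median of 0.00 for all genes. These are short transcripts, with a median length of 795 bases, against 2528.5 bases for the initiation and elongation factors.

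Genes of termination and ribosome recycling gave 0 calls among 6 in either comparison by limma. Of the 9 genes for mitochondrial translation factors, Tsfm was the only one called between experiments and none was called by genotype. Of 15 tested regulators, among them Mtor, Larp1 and Pdcd4, 3 were called lower in experiment 2 and 0 higher, with a median of -0.20, against 14.7% of all genes called lower. With the length trend removed 0 regulators were called and the median was -0.06. Ppp1r15a, the stress-induced partner of the eIF2 alpha phosphatase, had 43.5 and 44.5 CPM in TCRb-/- libraries 1 and 2 and 37.3 and 36.5 CPM in WT libraries 1 and 2. Its difference of 0.25 did not pass (limma adjusted p = 1.00). With the block its limma unadjusted p was 0.0208 and its adjusted p 0.848. Of the 41 genes tested that work with the factors, 7 had genotype groups that did not overlap, which is 17.1% against 17.8% of all genes. Ppp1r15a, Pabpc4, Hbs1l and Dhx29 were higher in TCRb-/- and Mtrf1l, Ddx3x and Gspt2 lower.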
